A study of Mus musculus with 11 samples.

Results

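Heat shock proteins and their DNAJ partners, the J-domain co-chaperones, were compared between hearts of mice with and without a model of polycystic ovary syndrome (PCOS). The members were the rows of the deposited expression table whose RefSeq accession mapped to a symbol that starts with Dnaj, Hspa, Hspb, Hsph or Hsp90, or that is Hspd1 or Hspe1. Of the 21878 rows, 60 matched, and 52 of these had a mean of at least 1 FPKM (sequenced fragments divided by transcript length and by the library total) over all samples, among 10891 such rows. The table gave 6 control and 5 PCOS heart samples from wild-type female mice. Mice of the PCOS group had been exposed before birth to anti-Müllerian hormone (AMH), and mice of the control group to phosphate-buffered saline as vehicle. Neither age, litter nor cardiac chamber is given in the labels, and nothing says that samples of a group came from separate animals. P-values thus reflect only how far these samples scatter, part of which may be technical.

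The 8 matching rows under the minimum were Hspbap1, Dnajb3, Dnajb7, Dnajb8, Dnajb13, Dnajc5b, Dnajc22 and Hspb9. Hspbap1 lay just outside it, at a mean of 0.498 FPKM, and Hspa1b just inside, at a mean of 1.06 FPKM. Dnajb8, known from the testis, was listed at 0 in every sample. Hspd1, the mitochondrial chaperonin partner of Hspe1, was not analysed here, nor were Hspa14, Dnajb5 and Dnajb6. No row mapped to these symbols, and 2800 rows mapped to no symbol and could hold further members, so sums and shares below cover the 52 mapped members only. The 52 tested members comprised 3 of the Hsp90 family, 13 of the Hsp70 family (Hspa and Hsph), 6 small heat shock proteins (Hspb), Hspe1, 3 Dnaja, 7 Dnajb and 19 Dnajc genes.

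Hsp70 proteins bind unfolded stretches of other proteins and release them in a cycle driven by ATP. J-domain proteins bring substrates to Hsp70 and start its ATP hydrolysis, Hsph (Hsp110) proteins exchange the spent nucleotide, and Hsp90 proteins finish the folding of kinases and steroid receptors. Small heat shock proteins hold unfolding proteins without ATP and are abundant in heart muscle, where they bind contractile and cytoskeletal filaments. Some members are made all the time, and others are induced by heat shock factor 1 or, in the endoplasmic reticulum (ER), by the unfolded protein response.

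Recovered depth ran from 11866291 to 14346620 reads per sample. The heart label was borne out by 7 cardiomyocyte genes such as Myh6, Tnnt2 and Actc1, whose summed level was 37897 to 43248 FPKM in controls and 42007 to 45503 FPKM in PCOS samples. Control 6 stood apart: the median of its correlations with other libraries was 0.962, where other libraries had 0.987 to 0.993. It held far more liver transcripts, with 10 of 10 liver markers in the table summing to 1934 FPKM, against 8.46 to 26.0 FPKM in the other controls and 13.7 to 18.1 FPKM in PCOS samples. Alb, which encodes albumin, stood at 852 FPKM in control 6 and at no more than 1.06 FPKM in any other library. Most results that leaving out control 6 moves are therefore given with and without it. The part of this library's other differences in them was not tested.

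None of the 52 members passed the test in all 11 samples, and Dnajb12, a J-domain protein of the ER membrane, had the smallest p. Without control 6, Dnajb12 alone passed, where 0.0275% of all rows were called lower, with a PCOS level 0.747 times that of controls on the log2(FPKM + 1) scale. The test was limma with Benjamini-Hochberg adjustment over all 10891 rows at an adjusted p under 0.05, by which 15 rows (0.138%) were called in all 11 samples and 32 rows (0.294%) without control 6. limma voom on the recovered reads also called 0 members in all 11 samples. At an unadjusted p under 0.05, 3 members passed (Dnajb12 and Dnajb9 lower, Hspb1 higher), beside 6.68% of all rows, 3.17% lower and 3.51% higher. Without control 6 there were 9 such members, beside 19.4% of all rows. Of these, 4 were higher (Dnajc15, Hspa8, Hspb1 and Hspb3), beside 9.62% of all rows, and 5 lower (Dnajb12, Dnajb9, Dnajc16, Dnajc28 and Dnajc5), beside 9.75%. The median difference of the 52 members (PCOS minus control, log2) was 0.006, with 27 higher and 25 lower, beside a median of 0.0017 over all rows. Without control 6 these medians were 0.014 and -0.0009.

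**Figure D1:**
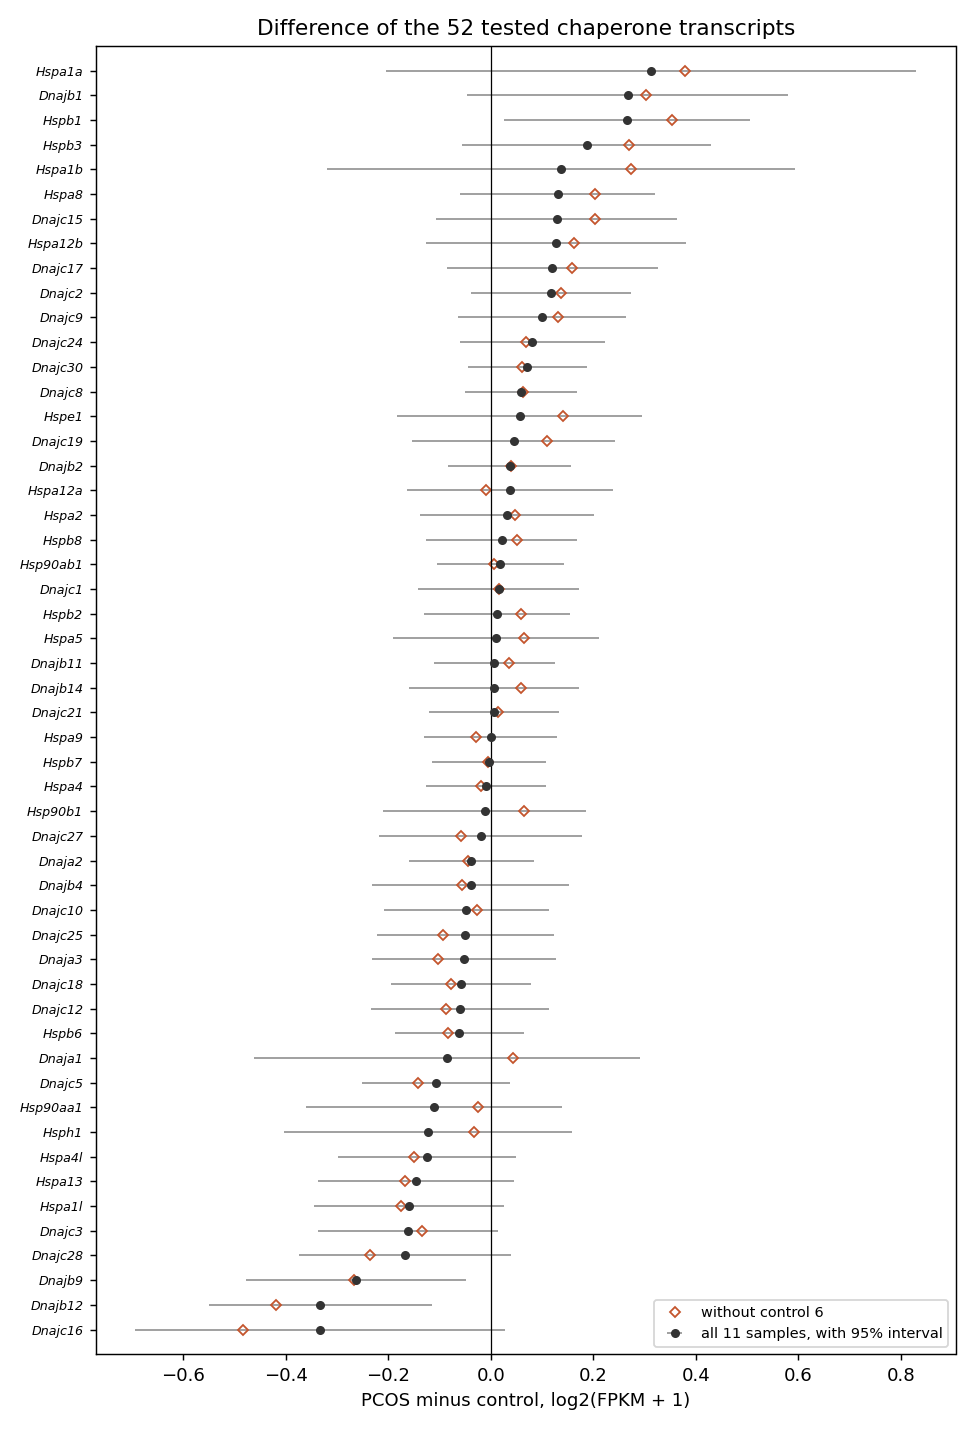
Difference between PCOS and control hearts (PCOS minus control, log2(FPKM + 1), horizontal axis) of the 52 tested members, ordered by size; filled points with bars are the limma estimate and its 95% interval in all 11 samples, and open diamonds the estimate without control 6. Intervals of 3 members leave out 0 (Dnajb12, Dnajb9 and Hspb1), and Dnajc16, Dnajb12 and Hspb1 move away from 0 when control 6 is left out.

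Dnajb12 (NM_019965.2; 10:59879583-59899296, GRCm38.p6, plus strand) encodes a membrane-anchored J-domain protein that faces the cytosol and passes misfolded membrane proteins to Hsp70 for degradation. In controls 1 to 6 it was at 19.7, 17.6, 16.6, 19.4, 18.1 and 12.4 FPKM, and in PCOS samples 1 to 5 at 14.8, 12.7, 13.4, 13.3 and 12.8 FPKM. Controls 1 to 5 all lay above every PCOS sample, while control 6 lay below every PCOS sample. Each value rested on 282 to 457 reads. The mean was 17.3 ± 2.67 FPKM in controls (SD, n = 6), or 18.3 ± 1.27 FPKM without control 6 (SD, n = 5), and 13.4 ± 0.842 FPKM in PCOS samples (SD, n = 5).

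The log2 difference of Dnajb12 was -0.33 with a standard error of 0.10 in all 11 samples (95% interval -0.55 to -0.11, limma adjusted p = 0.738). Without control 6 it was -0.42 with a standard error of 0.06 (95% interval -0.56 to -0.28, limma adjusted p = 0.014). An exact two-sided permutation test of this gene alone gave p = 0.0216 over the 462 splits of 11 samples, where 0.00216 is the smallest p possible. Without control 6 the exact permutation test gave p = 0.00794, the smallest that 252 splits allow. The gene was singled out with earlier results of these data known, so neither p is independent evidence. These are bulk samples, in which fewer cells of a type and less RNA per cell cannot be told apart. A long noncoding RNA, Gm46226 (10:59893882-59897762), overlaps Dnajb12, and the strand counted is not given in the sources used here, so reads from the overlap cannot be told apart.

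The 250 bases before the start of Dnajb12 are shown because it is the member the comparison turns on, and no heat shock or ER stress motif defined below was found in them, which says only that those letters are absent (RefSeq, GRCm38.p6, chr10:59879333-59879582, plus strand, 5′ to 3′).
Dnajb12: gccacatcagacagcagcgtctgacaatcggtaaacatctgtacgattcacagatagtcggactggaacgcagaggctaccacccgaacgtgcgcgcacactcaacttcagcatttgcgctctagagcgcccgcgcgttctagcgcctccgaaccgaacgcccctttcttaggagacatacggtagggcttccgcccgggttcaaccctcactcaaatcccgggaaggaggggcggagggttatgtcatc

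Dnajb14, the closest relative of Dnajb12 and its partner at the ER membrane, had a lower level and the same mean in both groups. It was at 2.17 ± 0.308 FPKM in controls (SD, n = 6) and 2.17 ± 0.104 FPKM in PCOS samples (SD, n = 5). Controls 1 to 5 spanned 1.95 to 2.14 FPKM, control 6 was at 2.78 FPKM and PCOS samples spanned 2.03 to 2.32 FPKM. The log2 difference was 0.01, with a 95% interval of -0.16 to 0.17, and 0.06 without control 6. Dnajc18, another ER membrane J-domain protein related to both, was at 6.84 ± 0.436 FPKM in controls (SD, n = 6) and 6.53 ± 0.467 FPKM in PCOS samples (SD, n = 5), with a log2 difference of -0.06 (95% interval -0.19 to 0.08).

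**Figure D2:**
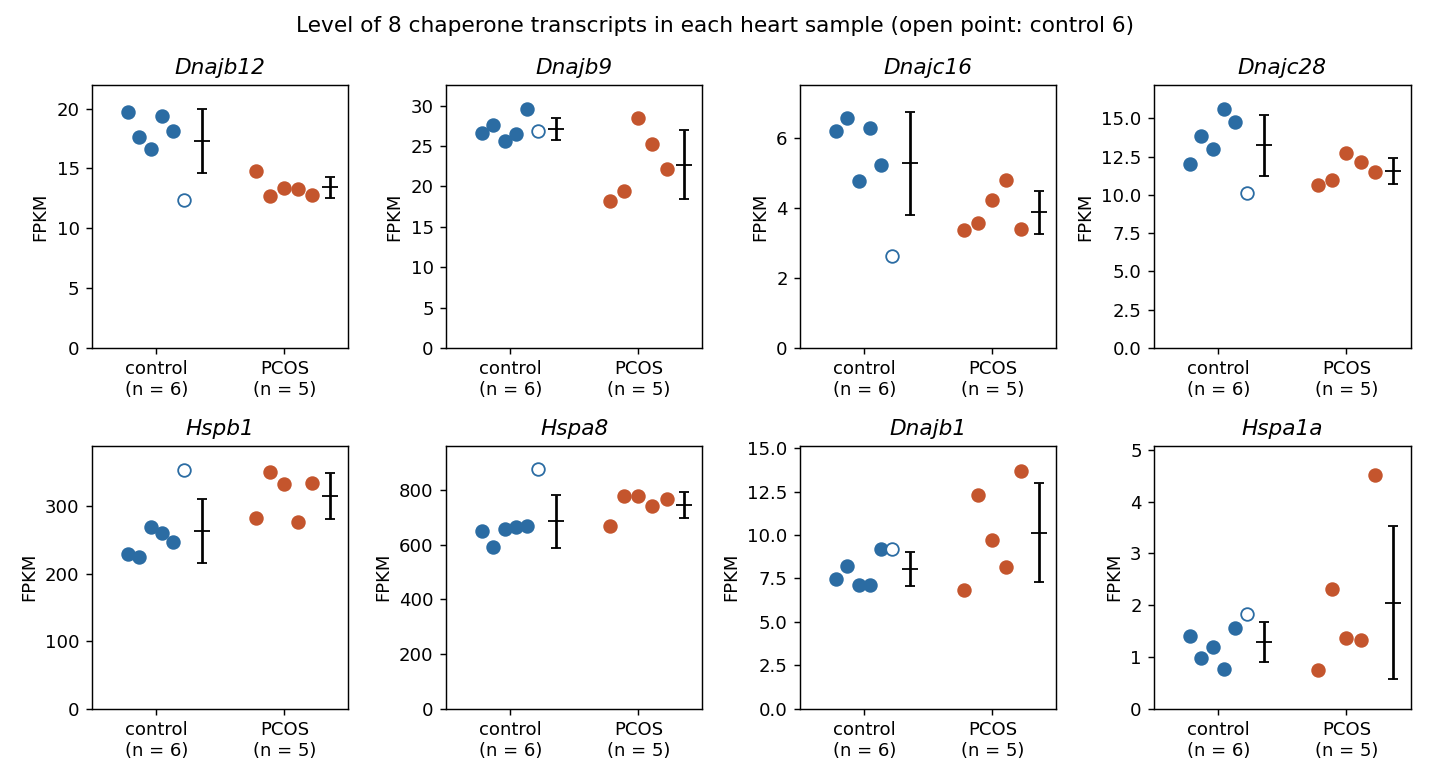
Level in FPKM (vertical axes, from 0) of 8 members in each control (blue) and PCOS (orange) sample, with control 6 as the open point and the group mean with SD beside the points (control 6 included). In Dnajb12, Dnajc16 and Dnajc28 control 6 is the lowest of all 11 samples, in Hspb1 and Hspa8 it is the highest, and in Dnajb9 it lies among the other controls.

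No other chaperone of the ER was called, with or without control 6. By an assignment from textbook knowledge, made after the values were seen, 13 members work in or at the ER, Dnajb12 included. Of these, 4 were higher and 9 lower in PCOS hearts, where 5381 of all 10891 rows were lower. Their median log2 difference was -0.05 in all 11 samples and -0.08 without control 6, and for all tested rows these medians were 0.0017 and -0.0009.

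Dnajb9 (ERdj4), a J-domain protein of the ER lumen that helps to dispose of misfolded proteins, was at 25.6 to 29.6 FPKM in the 6 controls. In PCOS samples 1 to 5 it was at 18.1, 19.5, 28.5, 25.3 and 22.1 FPKM, so 4 of them lay below every control and PCOS 3 lay among the controls. The log2 difference was -0.26 with a standard error of 0.10 (limma adjusted p = 0.738), and -0.27 without control 6 (limma adjusted p = 0.195).

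Dnajc16, a membrane J-domain protein of the ER, was at 6.20, 6.56, 4.76, 6.29, 5.23 and 2.63 FPKM in controls 1 to 6. PCOS samples 1 to 5 had 3.37, 3.57, 4.22, 4.78 and 3.41 FPKM of it. As with Dnajb12, control 6 lay below every PCOS sample; unlike Dnajb12, the groups overlapped without it, since PCOS 4 exceeded control 3. Its log2 difference was -0.33 with a standard error of 0.17 (limma adjusted p = 0.738), and -0.48 without control 6 (limma adjusted p = 0.0836).

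Dnajc3 (p58IPK), which restrains the stress kinase PERK, was at 11.5 ± 1.15 FPKM in controls (SD, n = 6) and 10.2 ± 1.06 FPKM in PCOS samples (SD, n = 5), with a log2 difference of -0.16. Hspa13, an Hsp70-like protein of microsomes, was at 3.51 ± 0.39 and 3.08 ± 0.461 FPKM, with a log2 difference of -0.15. The most abundant ER members differed little between the groups. Hspa5 (BiP), the Hsp70 of the ER lumen, had a mean of 204 FPKM in both groups, with SDs of 28.0 and 13.7 FPKM and a log2 difference of 0.01 (95% interval -0.19 to 0.21), or 0.07 without control 6. Hsp90b1 (Grp94), its Hsp90 counterpart, was at 160.0 ± 24.8 FPKM in controls (SD, n = 6) and 157 ± 7.95 FPKM in PCOS samples (SD, n = 5), with a log2 difference of -0.01 that became 0.06 without control 6. Dnajb11 (ERdj3), a co-chaperone of BiP, was at 18.8 FPKM in both groups.

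The ER stress element was searched in the 250 bases before the start sites on both strands, as CCAAT and CCACG with 9 bases of any kind between them. It was found in 37 of 32851 RefSeq windows (0.113%), and in 3 of 49 windows of 41 members, those of Hspa5, Hsp90b1 and Dnajc3. A match is a description of the letters and not evidence of a bound site. The windows of Hspa5 and Dnajb9 are shown because these genes of the same compartment are the most abundant and the lowest-p member after Dnajb12 in it; Dnajb9 has no match. Hspa5 lies at chr2:34771840-34772089 on the plus strand, with the match, which begins 65 bases before the start, in capitals. Dnajb9 lies at chr12:44210069-44210318 on the minus strand.
Hspa5: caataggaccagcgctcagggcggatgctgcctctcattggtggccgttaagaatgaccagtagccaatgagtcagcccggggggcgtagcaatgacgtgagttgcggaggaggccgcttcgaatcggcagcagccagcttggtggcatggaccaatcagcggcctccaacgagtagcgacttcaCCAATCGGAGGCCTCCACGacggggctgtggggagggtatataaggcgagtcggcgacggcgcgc
Dnajb9: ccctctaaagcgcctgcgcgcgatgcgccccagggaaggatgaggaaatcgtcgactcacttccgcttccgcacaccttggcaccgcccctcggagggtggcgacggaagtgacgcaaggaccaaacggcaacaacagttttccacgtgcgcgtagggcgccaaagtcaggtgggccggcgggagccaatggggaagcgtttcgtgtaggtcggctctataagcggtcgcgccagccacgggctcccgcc

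The other matches are shown alone, each read on its gene's strand, to let the spacing be compared. In Hsp90b1 they begin 212 and 107 bases before the start (chr10:86705638-86705656 and chr10:86705533-86705551, minus strand), the latter matching on the opposite strand. In Dnajc3 the match begins 105 bases before the start (chr14:118937827-118937845, plus strand).
Hsp90b1 first: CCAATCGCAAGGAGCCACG
Hsp90b1 second: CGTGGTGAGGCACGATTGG
Dnajc3: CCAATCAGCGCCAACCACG

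The stress-inducible members showed no call, and among them Hspa1a and Hspa1b spread more between samples than any other member. Of the 6 members Hspa1a, Hspa1b, Hsph1, Dnajb1, Hsp90aa1 and Hspb1, 4 were higher and 2 lower in PCOS hearts, with a median log2 difference of 0.20 in all 11 samples and 0.29 without control 6. Hspb1 (Hsp27) was the only member with higher PCOS levels at an unadjusted p under 0.05 in all 11 samples, where 3.51% of all rows were.

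Hspb1, a small heat shock protein that stabilises actin filaments, was at 229, 225, 269, 259.9, 247 and 354 FPKM in controls 1 to 6. Levels in PCOS samples 1 to 5 were 282, 351, 332, 276 and 335 FPKM. Every PCOS sample lay above controls 1 to 5, and control 6 lay above every PCOS sample. The log2 difference was 0.27 with a standard error of 0.11 (95% interval 0.03 to 0.51, limma adjusted p = 0.738), and without control 6 it was 0.35 (limma adjusted p = 0.0917). In all 11 samples no member had groups that did not overlap, where 0.698% of all rows did, 0.45% with PCOS above and 0.248% with PCOS below. Without control 6 there were 2 such members, where 3.55% of all rows were such. Hspb1 had PCOS above, as 1.7% of all rows did, and Dnajb12 had PCOS below, as 1.85% did.

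Hspa1a, the classic heat-induced Hsp70, was at 0.764 to 1.84 FPKM in the 6 controls. In PCOS samples 1 to 5 it was at 0.741, 2.30, 1.37, 1.32 and 4.51 FPKM, on 27 to 173 reads per sample over both groups. PCOS 5 had the highest level and PCOS 1 the lowest of all 11, so the PCOS samples spanned the controls. The log2 difference was 0.31 with a standard error of 0.24, and 0.07 without PCOS 5. Hspa1b, its near-identical neighbour, averaged 0.746 ± 0.276 FPKM in controls 1 to 5 (SD, n = 5), was at 2.05 FPKM in control 6 and at 0.67 to 2.39 FPKM in PCOS samples, on 17 to 92 reads. The log2 difference of Hspa1b was 0.14, and 0.27 without control 6. Without PCOS 5, its highest sample, the difference of Hspa1b was -0.04. How the counting divided reads between these copies is not given in the sources used here, so the value of each is uncertain.

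Dnajb1 (Hsp40), the heat-induced J-domain partner of Hspa1a, was at 7.11 to 9.22 FPKM in the 6 controls. Levels in PCOS samples 1 to 5 were 6.84, 12.3, 9.74, 8.14 and 13.7 FPKM. PCOS samples 2, 3 and 5 lay above every control, and PCOS 1 lay below every control. The log2 difference was 0.27 with a standard error of 0.14 (limma adjusted p = 0.742). PCOS 2 and PCOS 5 were also the PCOS samples with the highest Hspa1a.

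The inducible Hsp90aa1 and the Hsp110 gene Hsph1 had their highest level in control 6 and moved towards no difference without it. Hsp90aa1 was at 34.2 to 41.9 FPKM in controls 1 to 5, 53.6 FPKM in control 6, and 28.9, 40.8, 38.3, 37.6 and 38.7 FPKM in PCOS samples 1 to 5. Its log2 difference was -0.11 in all 11 samples and -0.03 without control 6. Hsph1 was at 11.5 to 15.3 FPKM in controls 1 to 5, 20.0 FPKM in control 6 and 10.2 to 16.4 FPKM in PCOS samples, with log2 differences of -0.12 and -0.03. Both genes were lowest in PCOS 1. The summed level of 8 immediate-early genes such as Fos and Egr1, which are induced when tissue is handled, was 149 to 543 FPKM in controls and 245 to 483 FPKM in PCOS samples. Of the 7 tested, 6 were higher and 1 lower in PCOS hearts, and 0 were called. Their median log2 difference was 0.32, or 0.44 without control 6. The part of immediate-early genes in the levels of inducible chaperones was not tested.

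The paired heat shock unit GAANNTTC was found in 2199 of 32851 windows (6.69%), and in 8 windows of 8 members among the 49 windows of 41 members (16.3%). These were Hspa1a, Hspa1b, Hspb1, Hspb3, Hspb6, Hspe1, Dnaja1 and Dnajc27. The motif reads the same on both strands. The longer motif of GAANNTTC followed by NNGAA, which contains it, was in 153 windows (0.466%), with Hspe1 the only one of the 41 members. Tested members outside these 41 had no window here and were not searched. The windows of Hspa1a (chr17:34972157-34972406, minus strand), Hspa1b (chr17:34959239-34959488, minus strand) and Hspb1 (chr5:135887669-135887918, plus strand) are shown with matches in capitals. They were chosen because they are the inducible members with a match, and because the first 2 show how alike the copies are, with 3 of 250 bases differing. The match begins 104 bases before the start in Hspa1a and Hspa1b, and matches begin 117 and 97 bases before it in Hspb1.
Hspa1a: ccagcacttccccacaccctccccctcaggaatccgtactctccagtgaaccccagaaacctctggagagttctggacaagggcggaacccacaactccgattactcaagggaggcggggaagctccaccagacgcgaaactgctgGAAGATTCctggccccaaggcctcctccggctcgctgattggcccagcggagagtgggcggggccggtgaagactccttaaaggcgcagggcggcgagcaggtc
Hspa1b: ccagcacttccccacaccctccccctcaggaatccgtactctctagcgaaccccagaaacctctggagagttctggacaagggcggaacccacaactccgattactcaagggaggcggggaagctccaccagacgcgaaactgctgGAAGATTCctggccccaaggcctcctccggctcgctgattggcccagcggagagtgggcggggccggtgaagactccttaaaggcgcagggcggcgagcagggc
Hspb1: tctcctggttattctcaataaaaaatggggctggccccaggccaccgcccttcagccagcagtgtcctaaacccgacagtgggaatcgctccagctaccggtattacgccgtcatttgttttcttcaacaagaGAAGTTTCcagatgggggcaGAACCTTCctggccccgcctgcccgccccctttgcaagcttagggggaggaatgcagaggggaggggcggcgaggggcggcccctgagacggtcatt

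Small heat shock proteins gave the largest share of the members' transcripts, 44.5% of their summed FPKM, before the Hsp70 family with 23.5% and the Hsp90 family with 15.2%. The Dnajc, Dnaja and Dnajb families held 7.17%, 3.64% and 2.39%, and Hspe1 held 3.51%. All 52 members together summed to 5768 ± 266 FPKM in controls (SD, n = 6) and 5863 ± 197 FPKM in PCOS samples (SD, n = 5), which was 1.03% to 1.19% of the table's FPKM in a sample.

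**Figure D3:**
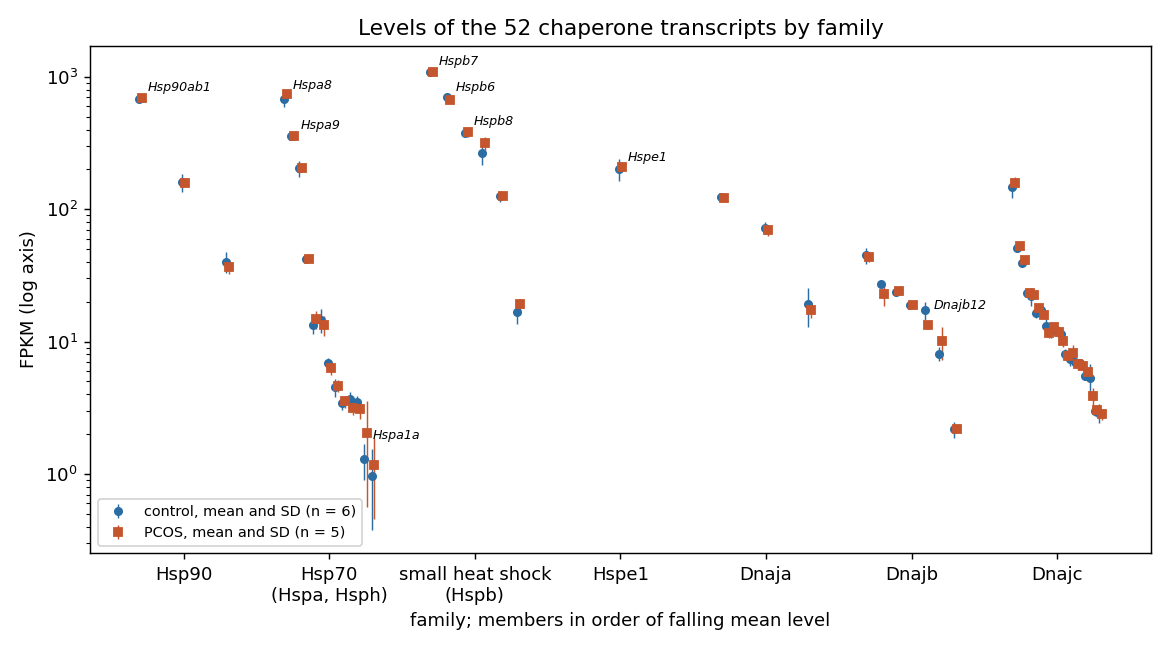
Mean level with SD (FPKM, logarithmic vertical axis) of the 52 members in controls (circles, n = 6) and PCOS hearts (squares, n = 5), by family and in order of falling level. The cardiac small heat shock gene Hspb7 stands highest, at 1089 FPKM in controls, and the inducible Hspa1a and Hspa1b lowest, with the widest SDs for their level.

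Hspb7 (cvHSP), a small heat shock protein of heart muscle, was the most abundant and least variable member. It was at 1031, 1038, 1127, 1181, 1074 and 1084 FPKM in controls 1 to 6 and 1101, 1088, 1060, 1053 and 1124 FPKM in PCOS samples 1 to 5, so the PCOS range lay inside the control range. Its coefficient of variation over 11 samples was 4.07%, against 64.7% for Hspa1a. Hspb6 (Hsp20), a small heat shock protein of cardiac and smooth muscle, was at 702 ± 44.5 FPKM in controls (SD, n = 6) and 672 ± 32.9 FPKM in PCOS samples (SD, n = 5), a log2 difference of -0.06 (95% interval -0.19 to 0.06).

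Hspb3, a muscle small heat shock protein that pairs with Hspb2, was at 14.0, 15.5, 15.3, 18.8, 14.8 and 22.4 FPKM in controls 1 to 6. In PCOS samples 1 to 5 it was at 21.1, 17.3, 21.3, 18.7 and 17.0 FPKM. Control 6 was again the highest of all 11 samples. On the log2 scale the difference was 0.19, and 0.27 without control 6 (limma adjusted p = 0.142). Cryab (alpha-B-crystallin), a small heat shock protein outside the naming rule, was more abundant than any member, at 1831 ± 252 FPKM in controls (SD, n = 6) and 1984 ± 101 FPKM in PCOS samples (SD, n = 5), with a log2 difference of 0.13 (limma adjusted p = 0.771), or 0.19 without control 6 (limma adjusted p = 0.155).

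In the cytosol, Hspa8 (Hsc70), the constitutive Hsp70, was at 651, 593, 659, 664, 668 and 876 FPKM in controls 1 to 6. PCOS samples 1 to 5 had levels of 666, 777, 778, 740.1 and 766 FPKM. PCOS 1 lay among controls 1 to 5, the other PCOS samples lay above them, and control 6 was highest of all. On the log2 scale the difference was 0.13, and 0.20 without control 6 (limma adjusted p = 0.117). Hsp90ab1, the constitutive Hsp90, was at 684 ± 24.7 FPKM in controls (SD, n = 6) and 694 ± 48.5 FPKM in PCOS samples (SD, n = 5), a log2 difference of 0.02 (95% interval -0.11 to 0.14).

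Among J-domain proteins of the cytosol, nucleus and vesicles, none was called. Dnaja2, an Hsp70 co-chaperone of the cytosol, was at 124 ± 6.22 FPKM in controls (SD, n = 6) and 121 ± 6.32 FPKM in PCOS samples (SD, n = 5). Dnajb4, a relative of Dnajb1, was at 45.1 ± 6.24 and 43.7 ± 3.44 FPKM. Dnajc5 (cysteine string protein), which guards vesicle fusion proteins, was at 17.2 ± 1.48 and 15.9 ± 0.772 FPKM, with a log2 difference of -0.11 that was -0.14 without control 6 (limma adjusted p = 0.22). Dnajc8, a protein associated with splicing, was at 50.7 ± 1.97 and 52.8 ± 1.84 FPKM.

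Dnajc2, which works with Hsp70 at the ribosome, was at 16.3 ± 1.19 FPKM in controls (SD, n = 6) and 17.8 ± 1.60 FPKM in PCOS samples (SD, n = 5), with a log2 difference of 0.12. Dnajc9, a histone chaperone, was at 12.0 ± 1.24 and 12.9 ± 0.982 FPKM, with a log2 difference of 0.10. Hspa1l, an Hsp70 known mainly from the testis, was at 3.67 ± 0.484 and 3.17 ± 0.364 FPKM, with a log2 difference of -0.16. Dnajc28, a J-domain protein of less studied function, was at 12.0, 13.8, 13.0, 15.6, 14.8 and 10.1 FPKM in controls 1 to 6 and 10.6, 10.9, 12.7, 12.1 and 11.5 FPKM in PCOS samples 1 to 5. Control 6 was below every PCOS sample, and the difference was -0.17 on the log2 scale, or -0.24 without control 6 (limma adjusted p = 0.142).

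Of the 6 members assigned to mitochondria, 4 were higher and 2 lower, with a median log2 difference of 0.05, or 0.09 without control 6. Hspa9 (mortalin), the matrix Hsp70 that pulls proteins through the import channel, had a mean of 355 FPKM in both groups, with SDs of 20.1 and 21.6 FPKM. Hspe1 (Hsp10), the lid of the mitochondrial chaperonin, was at 202 ± 38.0 FPKM in controls (SD, n = 6) and 207 ± 13.9 FPKM in PCOS samples (SD, n = 5). Control 6 was its highest sample, at 267 FPKM, and its log2 difference was 0.06 in all 11 samples and 0.14 without control 6. Dnaja3 (Tid1), the J-domain partner of mortalin, was at 72.2 ± 7.59 and 69.5 ± 6.19 FPKM, a log2 difference of -0.05, or -0.10 without control 6. Dnajc30, another mitochondrial J-domain protein, was at 39.2 ± 1.92 and 41.3 ± 1.70 FPKM. Dnajc15, a J-domain protein of the import motor, was at 115, 130.4, 157, 143, 146 and 188 FPKM in controls 1 to 6 and 174, 166, 169.6, 141 and 145 FPKM in PCOS samples 1 to 5. Its groups overlapped with and without control 6, with log2 differences of 0.13 and 0.20.

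**Figure D4:**
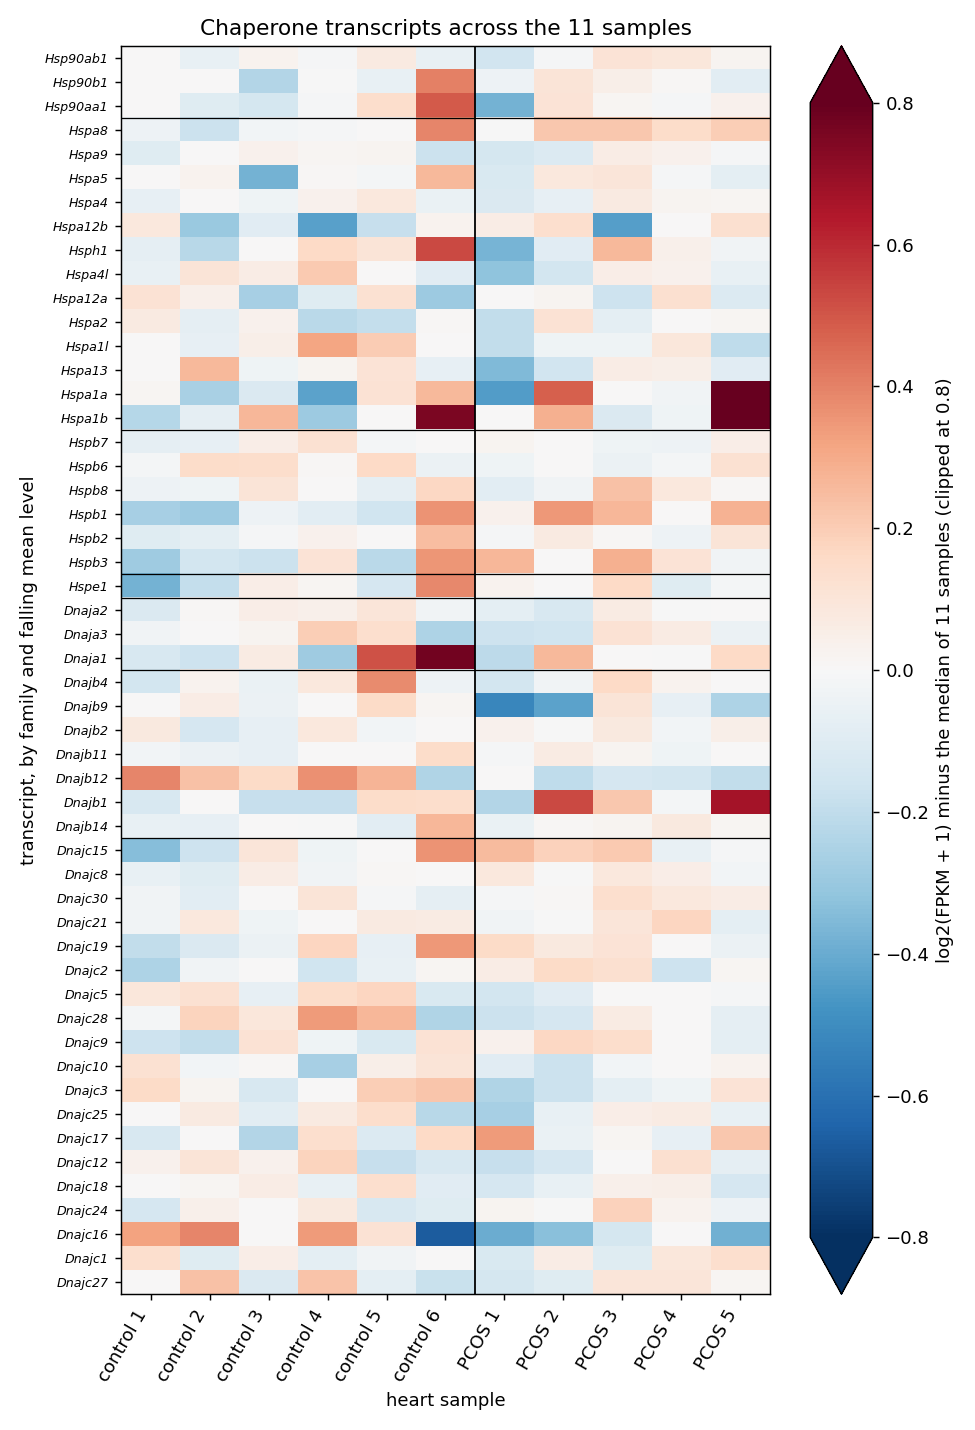
Each member's log2(FPKM + 1) minus its median over the 11 samples (colour, clipped at 0.8), with samples in columns and members in rows by family. Control 6 is the highest or lowest of 11 samples in 22 members, with low Dnajb12 and Dnajc16 and high Hspa8, Hspb1, Hsph1 and Dnaja1. PCOS 5 is highest in Hspa1a, Hspa1b and Dnajb1, followed by control 6 in Hspa1b and by PCOS 2 in Hspa1a and Dnajb1.

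Across samples, control 6 was the highest of 11 in 15 of the 52 members (28.8%) and the lowest in 7 (13.5%), where over all tested rows these shares were 18.7% and 20.7%. The members highest in it included Hspa5, Hsp90b1, Hspa8, Hsph1, Hspe1, Hspb1 and Dnaja1. PCOS 1 was the lowest of 11 in 15 members (28.8%), against 13.4% of all rows. In 8 of the 9 members with an unadjusted p under 0.05 without control 6, this library lay nearer the PCOS mean than the mean of the other controls, the exception being Dnajb9. Over all rows with such a p this held for 1812 of 2110 (85.9%), so these members did as most rows did. In Cd68, a macrophage lysosomal gene that passed the test (limma adjusted p = 0.000298), control 6 was at 5.49 FPKM, inside the 2.79 to 7.43 FPKM of the other controls and below the 15.6 to 21.0 FPKM of PCOS samples. Cd68 passed with control 6 counted as a control, which favours such a place, so it says nothing about control 6 in other rows.

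Of the markers of other cells, only those of macrophages had sums that separated the groups in all 11 samples. The summed level of 7 macrophage genes was 131 to 252 FPKM in controls and 279 to 389 FPKM in PCOS samples, with no overlap, and 1 of them (Cd68) was called. Of the 7, 6 were higher and 1 lower. Without control 6, 2 of them were called, Cd68 and Lyz2 (limma adjusted p = 0.0469 for Lyz2). For 6 red cell genes it was 530.3 to 1528 FPKM and 849 to 2229 FPKM, with 5 of 5 tested genes higher and 0 called. Sums over fibroblast (166 to 351 and 261 to 307 FPKM) and endothelial genes (188 to 323 and 222 to 287 FPKM) overlapped between controls and PCOS samples. So did those over smooth muscle and pericyte genes (222 to 369.7 and 266 to 357 FPKM), where control 6 was highest. Without control 6 the smooth muscle and pericyte sums did not overlap, since the other controls reached 263.8 FPKM and PCOS samples started at 266.0 FPKM. Of these 6 genes, 5 were higher and 1 lower, or 6 higher without control 6, and 0 were called. The adipocyte sum was 10.3 FPKM in control 6 and at most 2.03 FPKM in the other libraries. The part of these cell types in the chaperone values was not tested.

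None of the lists of further chaperone pathway genes held a call by limma, with or without control 6. At an unadjusted p under 0.05 in all 11 samples, 1 cochaperone (Stub1), 1 target of heat shock factor 1 (Hspb1), 1 heat shock factor (Hsf4) and 0 chaperonin or prefoldin subunits passed. In the list of ER-associated degradation, which also holds Stub1, 1 gene was higher and 1 lower at such a p. Over all rows 6.68% had such a p, 3.51% higher and 3.17% lower. Without control 6, 3 cochaperones were higher and 1 lower at such a p, and 2 chaperonin or prefoldin subunits were higher. In ER-associated degradation 2 genes were then higher and 3 lower. The shares of all rows also rose, to 9.62% higher and 9.75% lower. Of 29 tested genes among 32 Hsp70 and Hsp90 cochaperones and exchange factors, 16 were higher and 13 lower, with a median log2 difference of 0.005, or 0.03 without control 6. Stub1 (CHIP), the ubiquitin ligase that marks chaperone clients for degradation, was at 87.6 ± 8.73 FPKM in controls (SD, n = 6) and 97.8 ± 5.48 FPKM in PCOS samples (SD, n = 5), a log2 difference of 0.16 (limma adjusted p = 0.738). Without control 6 every PCOS sample lay above the controls in Stub1, as in 1.7% of all rows, and the log2 difference was 0.21 (limma adjusted p = 0.111). Hyou1 (Grp170), the nucleotide exchange factor of BiP, was at 8.92 ± 0.829 and 7.86 ± 0.752 FPKM, with a log2 difference of -0.16.

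Of 21 tested targets of heat shock factor 1 among 22 listed, 13 of them members, 13 were higher and 8 lower, with a median log2 difference of 0.02. Without control 6 the median was 0.05, and 3 targets (Hspa8, Hspb1 and Cryab) in place of 1 were higher at an unadjusted p under 0.05. The share of all rows higher at such a p also rose, from 3.51% to 9.62%. Of 5 tested heat shock factors and regulators among 8 listed, 3 were higher and 2 lower. No row mapped to Hsf1, so heat shock factor 1 itself was not tested. Hsf4, a heat shock factor best known from the lens, was at 2.86, 2.32, 2.56, 2.10, 1.59 and 1.55 FPKM in controls 1 to 6 and 4.20, 3.50, 2.64, 3.62 and 2.38 FPKM in PCOS samples 1 to 5, on 37 to 111 reads. The groups overlapped through PCOS samples 3 and 5, and the log2 difference was 0.43 with a standard error of 0.14 (limma adjusted p = 0.738). Without control 6 the difference of Hsf4 was 0.37 (limma adjusted p = 0.166). Hsf2, a developmental heat shock factor, had a log2 difference of -0.10, or -0.13 without control 6 (limma adjusted p = 0.287). Without control 6 every PCOS sample lay below the controls in Hsf2, as in 1.85% of all rows.

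Of 12 tested subunits of the chaperonin TRiC and of prefoldin, which fold actin and tubulin, among 14 listed, 9 were higher and 3 lower, with a median log2 difference of 0.04, or 0.07 without control 6. The prefoldin subunits Pfdn6 and Pfdn5 had the smallest p, with log2 differences of 0.21 and 0.19, or 0.29 and 0.26 without control 6 (limma adjusted p = 0.0969 and 0.139). Pfdn6 was at 48.1 to 54.1 FPKM in controls 1 to 5, 71.6 FPKM in control 6 and 55.0 to 69.8 FPKM in PCOS samples. Its groups thus did not overlap without control 6, with PCOS above, as in 1.7% of all rows. Of 19 tested genes of ER-associated degradation among 25 listed, 9 were higher and 10 lower, with a median log2 difference of -0.002, or -0.008 without control 6.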

How the data were processed

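Heart RNA in 6 control and 5 PCOS samples was measured by RNA-seq (mirVana extraction, TruSeq stranded mRNA libraries, per the labels' protocols). The submitters' processing notes list HTSeq 0.13.5, HISAT2 2.2.1, DESeq2 1.18.1, Trimmomatic 0.38, FastQC 0.11.9, R 3.4.1 and build mm10. The authors deposited FPKM per RefSeq accession, and the settings and counted strand are not given in the sources used here. FPKM is relative to the library, so a few abundant transcripts can shift the others. Symbols came from RefSeq (GRCm38.p6) for 87.2% of rows; promoter sequences are also RefSeq's.

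Rows averaging 1 FPKM or more were tested as log2(FPKM + 1) with limma 3.58.1 in R 4.3.3 (lmFit, eBayes with trend) and Benjamini-Hochberg adjustment over 10891 rows. Differences are PCOS minus control on this scale, which understates changes of low genes. Reads were recovered from the steps of FPKM values: whole reads came out, within 0.000135 of a whole number, for each of the 15939 rows that exceed 0 in 3 or more samples. On these reads limma voom called 12 rows. The test and the recovery were tested on simulated data.

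The members and lists were chosen with earlier results of these data known. Named were Dnajb12 and Dnajb14, called members, the 8 higher and 8 lower members with the smallest p, the 2 most abundant of each family, 6 stress-inducible members, and of each pathway list the called genes or else the 2 with the smallest p; 1 gene that this rule names is not reported here. Dnajc18, Dnajb11, Hspa5, Cd68 and Alb were named after their values were seen. Alternatives were a pseudocount of 0.1, no filter, a minimum of 5 FPKM, median-ratio scaling, quantile normalization, a replicate block, sample weights, voom, and leaving out libraries.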

Additional observations from a re-analysis of the deposited data

Results flagged for a closer look

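Among 78 groups of named genes examined for a sample far from its group, 7 held one, and 5 of the 7 were control 6. For a single group chance gives about 1 in 20. The 78 groups share the same libraries and are not independent, so that rate cannot be set against the count of 7. This library was the highest control in Dnajb14 (2.78 FPKM, next 2.14), Hsp90b1 (207.1 FPKM, next 157.0), Hspa8 (876.4 FPKM, next 668.5), Hspb1 (354.2 FPKM, next 268.7) and Pfdn6 (71.6 FPKM, next 54.1). Its gap to the next control took 0.777, 0.678, 0.734, 0.663 and 0.744 of the group's range, above Dixon's 95% critical value for 6 samples. PCOS 1 was far below the other PCOS samples in Hsp90aa1 (28.9 FPKM, next 37.6, 0.727 of the range), and PCOS 5 far above them in Hspb6 (729.6 FPKM, next 669.3, 0.747 of the range), where the critical value for 5 samples is 0.71.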

How the results depend on the processing

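Dnajb12 was lower in PCOS hearts in 21 of 21 alternatives and called in 3 of them, each of which drops or down-weights control 6. Its log2 difference was -0.42 with the replicate block (limma adjusted p = 0.0343), -0.40 with sample weights (adjusted p = 0.0206) and -0.42 without control 6 (adjusted p = 0.014). Leaving out each replicate in turn gave -0.42 to -0.29, and leaving out controls 2, 5 and 6 gave -0.44 (adjusted p = 0.0798). The count of called members was 0, and 1 (Dnajb12) in the same 3 settings, so 0 to 1 over the replicates left out. The count over all rows was 15, and 5 at a minimum of 5 FPKM, where fewer rows were tested, 27 with the replicate block, 25 with sample weights, and 10 to 32 without each replicate in turn, 32 being without control 6. The block uses replicates 1 to 5 of each group and so leaves out control 6. Same-numbered samples did not deviate together (correlations of 0.133, -0.032, -0.118, 0.254 and 0.101), and none matched its own number best. Of the 30 other named members, none was called in an alternative (smallest adjusted p = 0.0836); 21 kept their direction in every alternative and 9 did not. The members' median difference was -0.021 with quantile normalization. Depth limits Hspa1a and Hspa1b most.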
